A study of Xenopus tropicalis with 15 samples.

Results

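Echinomycin was set against its DMSO control in the regenerating tail of Xenopus tropicalis tadpoles, and the 6 libraries of that comparison, chosen by their titles from the 15 in the series, are described here. Wild-type tadpoles aged 3 days (NF stage 41) were used throughout, and the end of the tail was cut off. The 3 echinomycin libraries came from tadpoles then kept at 23 °C in 0.5 µM echinomycin, and the 3 DMSO libraries from tadpoles kept at the same temperature in 0.1% DMSO. In both groups about 250 µm of tail tissue was taken at 24 h post amputation (hpa) for total RNA. Libraries of tissue treated for the same time with 5 µM 2-methoxyestradiol (2ME) or 10 µM IWR-1, and of untreated tail tissue taken at 0 hpa, were set beside them (3 libraries each). The labels do not say how many tails went into a sample, whether the echinomycin medium held DMSO too, or what a replicate number stands for. Tests between groups therefore measure the spread between these samples, which may be technical.

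Echinomycin is a cyclic peptide antibiotic of Streptomyces that inserts into DNA around CG steps and was found to keep hypoxia-inducible factor 1 (HIF1) from its binding site in human cells. HIF1 is a dimer of an oxygen-regulated alpha subunit and ARNT, and it turns on genes of glucose use, blood vessels and matrix when oxygen is low. An amputated tadpole tail covers the wound with epidermis, collects proliferating progenitor cells beneath it, and rebuilds spinal cord, notochord, muscle and vessels under FGF, Wnt, Notch and BMP signals. The comparison addresses what an antagonist of HIF1 changes in this tissue at the RNA level.

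Levels are given as CPM, the counts divided by the library total in units of 1 M and scaled by TMM factors, as mean ± SD over the 3 libraries of a group or library by library. Ratios are log2 of echinomycin over DMSO ± SE. A gene was called at an adjusted p under 0.05 in edgeR's quasi-likelihood test with Benjamini-Hochberg adjustment over all 18823 gene models tested, and the words rose and fell are used of called genes. The echinomycin libraries held 19.1 to 22.1 M estimated counts and the DMSO libraries 18.6 to 23.4 M, so a count of 0 allowed up to 0.128 to 0.161 CPM (3 counts), a limit that covers counting error. Correlations of log2 CPM between libraries, taken across genes, were 0.991 to 0.995 within the echinomycin group, where the lower values involved replicate 1, and 0.994 to 0.995 within the DMSO group. TMM factors were 1.03 to 1.05 with echinomycin and 0.913 to 0.959 with DMSO. Without them the median log2 ratio of all models moved to 0.16, and with upper-quartile factors to 0.12, from 0.01, so small ratios depend on the scaling.

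Echinomycin moved many genes, most of them by less than 2-fold. Of the tested models 9709 (51.6%) were called, 4631 higher (24.6%) and 5078 lower (27.0%). This balance moved with the scaling, to 5846 higher and 3907 lower with upper-quartile factors, 6315 higher and 3441 lower without a factor and 5626 higher and 3347 lower with limma on the deposited CPM. Rises of 2-fold or more outnumbered such falls, with 1662 models higher (8.83%) and 597 lower (3.17%). The median effective transcript length was 2172 bases for these rises and 1543 bases for the falls, beside 2136 bases for all models. In 10761 models (57.2%) the libraries of the groups did not overlap, the echinomycin libraries being above in 27.4% and below in 29.8%. Counts of list members below are to be read beside the 24.6% of all models called higher and the 27.0% called lower.

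**Figure D1:**
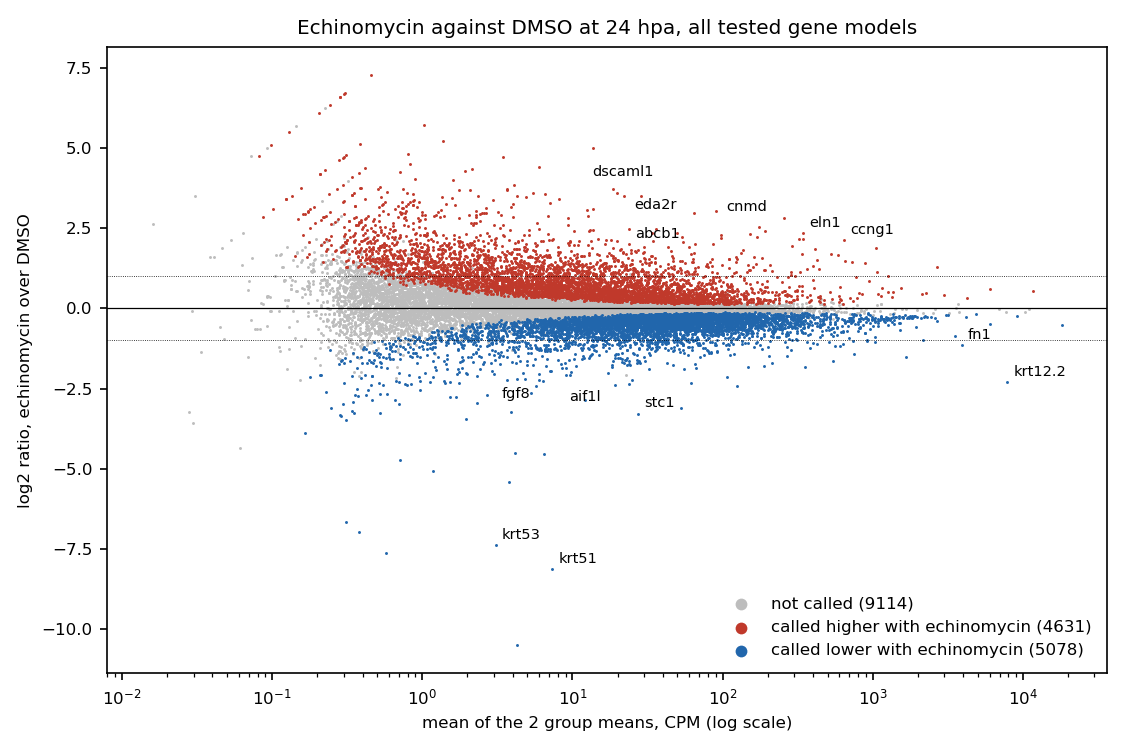
Log2 ratio of echinomycin over DMSO against the mean level (CPM, log scale) for each of the 18823 tested gene models, with dotted lines at 2-fold. Points above 0 are higher with echinomycin (4631 called, red) and points below 0 lower (5078 called, blue), and the keratins krt51 and krt53 lie far below the other named genes.

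The largest falls, among models with at least 5 CPM in 1 group, included 3 keratins. The keratin gene krt51 had 0, 0.0435 and 0.0993 CPM in the echinomycin libraries, against 15.7, 14.5 and 13.4 CPM in the DMSO libraries. It had 3 counts in all with echinomycin and 881 with DMSO, a level 312 times lower (counting interval 107 to 1518). The related krt53, with 2 counts against 367, was 195 times lower (counting interval 53.6 to 1618), and near-identical keratin copies can exchange reads in the counting. In RNA from whole tissue, fewer cells of a type and less of an RNA in each cell cannot be told apart, here and below. An abundant keratin, krt12.2, had 1921, 3648 and 2463 CPM in the echinomycin libraries, against 12363, 14369.6 and 12591 CPM in the DMSO libraries. Its log2 ratio was -2.29 ± 0.16. Stanniocalcin 1 (stc1), a secreted calcium regulator, and the growth factor gene fgf8 were also among the largest falls and are described with their pathways. The peptidase gene ecel1 (log2 ratio -3.23 ± 0.28), the retinol-esterifying enzyme lrat (-2.41 ± 0.24), the actin-binding aif1l (-2.37 ± 0.21), gatd3a-like (-2.24 ± 0.28) and the ciliary gene cfap77 (-2.20 ± 0.21) fell as well. A model named cdkn2d, whose symbol another model shares, averaged 0.159 ± 0.276 CPM with echinomycin and 7.35 ± 6.85 CPM with DMSO, and its log2 ratio was -5.40 ± 1.21, or -10.26 without echinomycin replicate 2, the 1 echinomycin library with counts, and DESeq2 did not call it (adjusted p = 0.0683).

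The largest rises under the same conditions included a p53 target and genes of cartilage matrix. The cell adhesion gene dscaml1 had 42.9, 27.1 and 34.1 CPM in the echinomycin libraries, against 2.58, 2.26 and 2.96 CPM in the DMSO libraries. Its log2 ratio was 3.73 ± 0.17. The ectodysplasin receptor eda2r, a p53 target in mammals, had 47.7, 30.5 and 42.7 CPM in the echinomycin libraries, against 3.37, 3.27 and 4.03 CPM in the DMSO libraries. It rose by a log2 ratio of 3.49 ± 0.17. Chondromodulin (cnmd), a cartilage protein that inhibits vessel growth in mammals, averaged 161 ± 45.7 CPM with echinomycin and 19.5 ± 2.11 CPM with DMSO (3.04 ± 0.16), and the cartilage matrix gene chad averaged 22.3 ± 1.34 CPM with echinomycin and 2.65 ± 0.19 CPM with DMSO (3.07 ± 0.15). Others among the 12 largest rises of models with at least 5 CPM in 1 group were the antiproliferative btg5.3 (3.72 ± 0.44), otos, an inner ear matrix gene in mammals (3.60 ± 0.31), pdgfrl.2, related to the PDGF receptors (3.49 ± 0.18), the adaptor sh2d6 (3.42 ± 0.22), the muscle stretch gene ankrd2 (3.29 ± 0.23), the Wnt receptor fzd9 (3.25 ± 0.39), fndc7 (3.70 ± 0.82, and 2.15 without echinomycin replicate 1) and otof, an exocytosis gene of mammalian hair cells (3.37 ± 0.61).

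Genes that HIF1 controls in mammals moved in both directions. The alpha subunit gene hif1a was abundant, with 227, 243 and 241 CPM in the echinomycin libraries, against 231, 217 and 234 CPM in the DMSO libraries. The groups overlapped and the log2 ratio was 0.06 ± 0.05 (adjusted p = 0.369), becoming 0.16 with upper-quartile factors (adjusted p = 0.0207) and 0.21 without a factor (adjusted p = 0.0092), which called it. Its partner arnt (log2 ratio 0.12 ± 0.06, adjusted p = 0.109), the prolyl hydroxylases egln1 (0.09 ± 0.14, adjusted p = 0.589) and egln3 (-0.42 ± 0.20, adjusted p = 0.0935) and the coactivator antagonist cited2 (0.06 ± 0.14, adjusted p = 0.756) were not called. Other members of the machinery did change. The second alpha subunit epas1 had 15.6, 21.3 and 25.1 CPM in the echinomycin libraries, against 10.5, 10.5 and 12.19 CPM in the DMSO libraries. It was higher in every echinomycin library, with a log2 ratio of 0.90 ± 0.14. The prolyl hydroxylase egln2 averaged 17.7 ± 0.311 CPM with echinomycin and 8.2 ± 1.63 CPM with DMSO (1.11 ± 0.19), vhl, the ubiquitin ligase subunit that marks the alpha subunits for destruction, averaged 4.84 ± 0.462 CPM with echinomycin and 2.73 ± 0.63 CPM with DMSO (0.82 ± 0.22), and the asparaginyl hydroxylase hif1an rose by 0.21 ± 0.06. Smaller ratios were those of arnt2 (0.39 ± 0.15) and the acetyltransferases ep300 (0.16 ± 0.06) and crebbp (-0.25 ± 0.06), and the calls of arnt2 (adjusted p = 0.173) and ep300 (adjusted p = 0.095) were lost without echinomycin replicate 3, and also without replicate 2 (0.0597 and 0.0817). The call of arnt2 was lost without DMSO replicate 3 as well (adjusted p = 0.164), with a replicate block (0.0539), with DESeq2 (0.0603), with the echinomycin and DMSO libraries fitted alone (0.0611) and without a filter (0.073). That of ep300 was lost without a filter too (adjusted p = 0.0777), and that of crebbp without a scaling factor (adjusted p = 0.18) and with limma on the authors' CPM (0.166). In all 6 of 12 members rose and 1 fell, or 2 without echinomycin replicate 3, where egln3 was called.

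Among 47 tested HIF1 target genes 19 rose (40.4%) and 9 fell (19.1%), beside 24.6% and 27.0% of all models, and the median log2 ratio was 0.17, beside 0.01. This split moved with the scaling, to 26 higher and 5 lower with upper-quartile factors and 28 higher and 4 lower without a factor. With limma on the deposited CPM, which gave no value for stc1, 28 were higher and 3 lower. Stc1 had 4.99, 6.39 and 3.82 CPM in the echinomycin libraries, against 63.4, 49.6 and 35.6 CPM in the DMSO libraries. Even its highest echinomycin library was far below its lowest DMSO library, and the log2 ratio was -3.27 ± 0.21. The mitochondrial gene higd1a had 92.9, 94.5 and 83.8 CPM in the echinomycin libraries, against 198, 193 and 184 CPM in the DMSO libraries. It was lower by about the same amount in each echinomycin library, with a log2 ratio of -1.08 ± 0.06. The glycolytic enzymes pgk1 (110.0 ± 4.9 CPM with echinomycin and 163 ± 15 CPM with DMSO, log2 ratio -0.56 ± 0.09) and hk1 (-0.42 ± 0.07) fell as well. By 2-fold or more 10 members rose and 3 fell, and the largest ratio of the list, in a gene not named here, was 2.97. The rises included genes of matrix remodelling. Lysyl oxidase (lox), which crosslinks collagen and elastin, had 88.9, 60.7 and 62.3 CPM in the echinomycin libraries, against 25.5, 18.9 and 17.7 CPM in the DMSO libraries. The groups did not overlap, with a log2 ratio of 1.78 ± 0.15. Its relative loxl2 (1.24 ± 0.13), the collagen lysyl hydroxylase plod2 (1.38 ± 0.12) and the prolyl hydroxylase p4ha1 (1.38 ± 0.29) rose too. So did the growth factor pdgfb (1.41 ± 0.12), the mitophagy receptor bnip3l (1.07 ± 0.10), the nuclear receptor rora (1.58 ± 0.16) and the vessel growth factor vegfa, at a low level of 4.3 ± 1.15 CPM with echinomycin and 2.12 ± 0.367 CPM with DMSO (1.01 ± 0.24). The targets ndrg1 (0.13 ± 0.09, adjusted p = 0.235) and aldoa (0.17 ± 0.10, adjusted p = 0.165) were not called. The list of glycolysis and lactate genes, which shares members with the HIF1 list, also went both ways. Of 35 listed genes of glycolysis and lactate 15 rose (42.9%) and 9 fell (25.7%), the falls being near the 27.0% of all models. With upper-quartile factors 20 were higher and 7 lower, and without a factor 21 were higher and 6 lower. The rises included pkm (0.75 ± 0.08), pfkm (1.103 ± 0.13) and the muscle enzyme pgam2 (1.53 ± 0.21). The falls included pfkp (-0.65 ± 0.07) and ldhb (-0.57 ± 0.09).

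**Figure D2:**
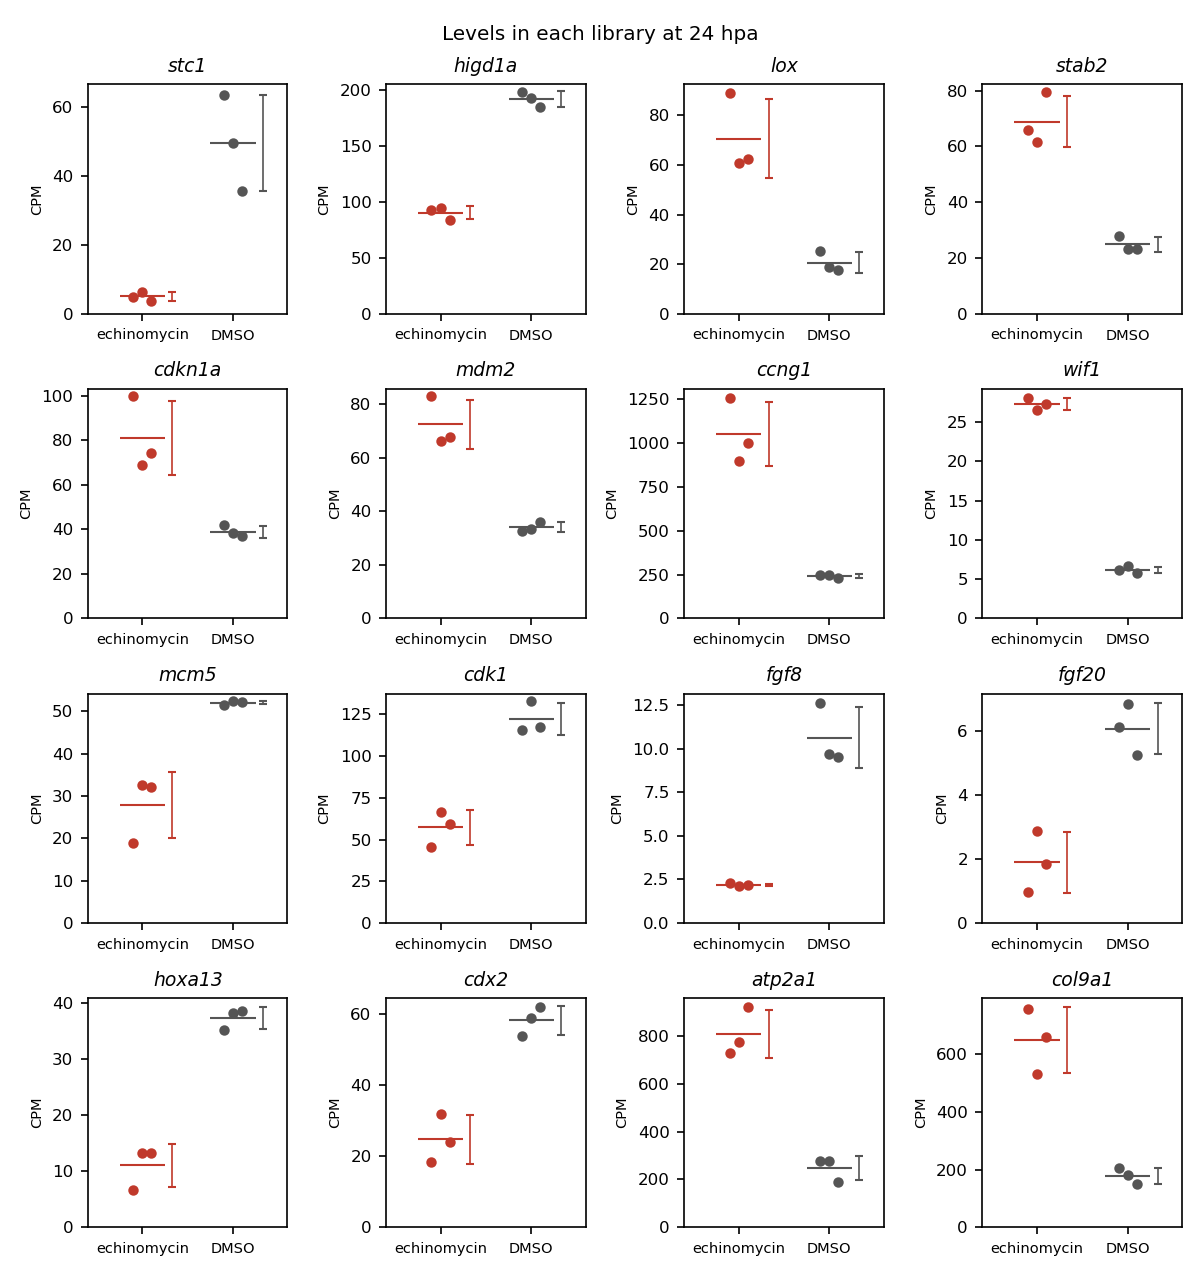
Levels (CPM, linear axes that start at 0) of 16 genes in each library, echinomycin (red) left of DMSO (grey), with the mean as a line and the SD as a bar. The groups did not overlap in any panel: stc1, higd1a, mcm5, cdk1, fgf8, fgf20, hoxa13 and cdx2 were lower with echinomycin, and lox, cdkn1a, mdm2, ccng1, wif1, stab2, atp2a1 and col9a1 higher.

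Several targets of p53, the factor that arrests or kills cells with damaged DNA, rose. Of 27 tested p53 targets 13 rose (48.1%) and 2 fell (7.41%), with a median log2 ratio of 0.20. The falls were 1 without echinomycin replicate 2, DMSO replicate 1 or DMSO replicate 3. The cyclin ccng1 had 1256, 899 and 1002 CPM in the echinomycin libraries, against 248, 247 and 229 CPM in the DMSO libraries. It was the most abundant of the p53 targets in the echinomycin group, at a log2 ratio of 2.12 ± 0.09. The cell cycle inhibitor cdkn1a had 99.9, 69 and 74.5 CPM in the echinomycin libraries, against 42, 38.2 and 36.8 CPM in the DMSO libraries. Replicate 1 was highest among the echinomycin libraries, and all 3 exceeded the DMSO libraries (1.06 ± 0.11). The ubiquitin ligase mdm2, which removes p53 in a feedback loop, had 83, 66.2 and 67.8 CPM in the echinomycin libraries, against 32.5, 33.4 and 36.1 CPM in the DMSO libraries. It rose by 1.09 ± 0.09. Rises were also seen in tp53inp1 (1.83 ± 0.19), the nuclease aen (1.40 ± 0.10), the death domain gene pidd1 (0.92 ± 0.11) and the pro-death bax (0.63 ± 0.13). Other known targets were not called, among them sesn1 (0.09 ± 0.11, adjusted p = 0.504) and fas (0.07 ± 0.06, adjusted p = 0.362), and triap1 fell (-0.57 ± 0.11, and -0.37 without DMSO replicate 2).

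DNA repair genes mostly fell. Of 33 listed genes of damage signalling and repair 22 fell and 3 rose (median log2 ratio -0.39). The rises included the ligase lig4 (0.33 ± 0.10) and the nuclease ercc4 (0.46 ± 0.11). Only 1 rise was of 2-fold or more, and the largest ratio of the list, in a gene not named here, was 1.22. Although most members fell, the list summed to 1174 to 1270 CPM with echinomycin and 1080 to 1139 CPM with DMSO. The mismatch repair gene msh6 (32 ± 9.98 CPM with echinomycin and 57.9 ± 1.69 CPM with DMSO, log2 ratio -0.86 ± 0.15), the checkpoint kinases chek2 (-0.91 ± 0.15) and chek1 (-0.49 ± 0.10) and the strand break sensor parp1 (-0.65 ± 0.06) were lower. Many of these genes are highest in dividing cells, and the part of cell division in their falls was not tested. The damage kinase atr was not called (0.16 ± 0.14, adjusted p = 0.356). Of 22 apoptosis genes 4 rose (18.2%) and 9 fell (40.9%), beside 24.6% and 27.0% of all models. But without echinomycin replicate 3 the falls were 5, and without a scaling factor 9 rose and 5 fell. The initiator caspase casp2 (-0.74 ± 0.09) fell, and casp10 (0.32 ± 0.08) and the pro-death bcl2l11 (0.45 ± 0.14) rose.

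Genes of DNA replication and mitosis fell almost as a body. Of 56 replication genes 51 fell (91.1%) and 1 rose, with a median log2 ratio of -0.86. The helicase subunit mcm5 had 19, 32.7 and 32.1 CPM in the echinomycin libraries, against 51.6, 52.5 and 52.2 CPM in the DMSO libraries. Echinomycin replicate 1 was lowest, and the DMSO libraries were close together above all 3 (-0.90 ± 0.13). Thymidylate synthase tyms had 7.21, 14.5 and 13.5 CPM in the echinomycin libraries, against 30.1, 38 and 34.6 CPM in the DMSO libraries. The fall was among the largest of the list (-1.54 ± 0.18), with the ribonucleotide reductase subunits rrm1 (-1.35 ± 0.15) and rrm2.2 (-1.37 ± 0.17), the replication origin factor cdc6 (-1.14 ± 0.16), the polymerase subunit pola1 (-1.13 ± 0.17) and the clamp pcna (122 ± 3.74 CPM with echinomycin and 185 ± 21.5 CPM with DMSO, -0.60 ± 0.09). The exception was mcm3, a low model at 1.77 ± 0.637 CPM with echinomycin and 0.408 ± 0.185 CPM with DMSO (2.13 ± 0.41). Of 59 genes of G2 and mitosis 57 fell (96.6%) and 1 rose (median -0.71). The mitotic kinase cdk1 had 45.5, 66.7 and 59.5 CPM in the echinomycin libraries, against 116, 133 and 118 CPM in the DMSO libraries. All echinomycin libraries were below all DMSO libraries (-1.09 ± 0.11). The chromosome passenger incenp (-1.13 ± 0.11), the condensin smc4 (-1.07 ± 0.11), the kinases aurkb (-1.004 ± 0.10) and plk1 (-0.91 ± 0.12) and the mitotic factor foxm1 (-0.91 ± 0.16) fell, while the phosphatase cdc25b rose (0.70 ± 0.15).

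Genes for making and folding proteins fell too, by smaller amounts. Of 70 genes of ribosome assembly 64 fell (median log2 ratio -0.59). The rRNA methyltransferase ftsj3 averaged 63.4 ± 11.3 CPM with echinomycin and 152 ± 2.94 CPM with DMSO (-1.26 ± 0.09), the helicase ddx18 33.9 ± 2.02 CPM with echinomycin and 70.5 ± 8.6 CPM with DMSO (-1.06 ± 0.08), and fibrillarin (fbl), the methyltransferase of small nucleolar particles, 268 ± 18.4 CPM with echinomycin and 475 ± 31.9 CPM with DMSO (-0.83 ± 0.06). Nucleophosmin (npm1) fell (-0.72 ± 0.06), while the nucleolar helicase ddx21 (0.10 ± 0.06, adjusted p = 0.187) was not called. The 76 tested cytosolic ribosomal protein genes had 74 falls with a median of -0.33, and the 73 mitochondrial ones 68 falls with a median of -0.45. The cytosolic falls counted 57 with upper-quartile factors (median -0.23), 52 without a factor (median -0.18) and 58 without DMSO replicate 2. Proteasome subunit genes fell in 32 of 34 cases (median -0.52), such as psma7 (-0.66 ± 0.07) and psmb7 (-0.67 ± 0.07). In the list of Atf4 targets and the unfolded protein response 27 of 38 fell and 3 rose (median -0.48). The endoplasmic reticulum chaperone hspa5 had 365, 440.1 and 390.4 CPM in the echinomycin libraries, against 886, 884 and 837 CPM in the DMSO libraries. Each echinomycin library was far below each DMSO library (-1.12 ± 0.07). Its partners hsp90b1 (-1.18 ± 0.06), calr (-1.05 ± 0.06) and pdia6 (-1.04 ± 0.06), and the serine synthesis enzyme phgdh (-1.33 ± 0.19), fell likewise, while atf5 rose (0.76 ± 0.10). Of 35 chaperone genes 23 fell, including the ring chaperonin subunit cct3 (-0.74 ± 0.07), and 3 rose, the small chaperones hspb1 (1.40 ± 0.19) and hspb8 (1.24 ± 0.16) and the cochaperone dnajb4 (1.08 ± 0.26). Respiratory chain subunits counted 42 falls of 69 with a median of -0.23, a count of 13 without DMSO replicate 2 and 12 without a scaling factor.

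**Figure D3:**
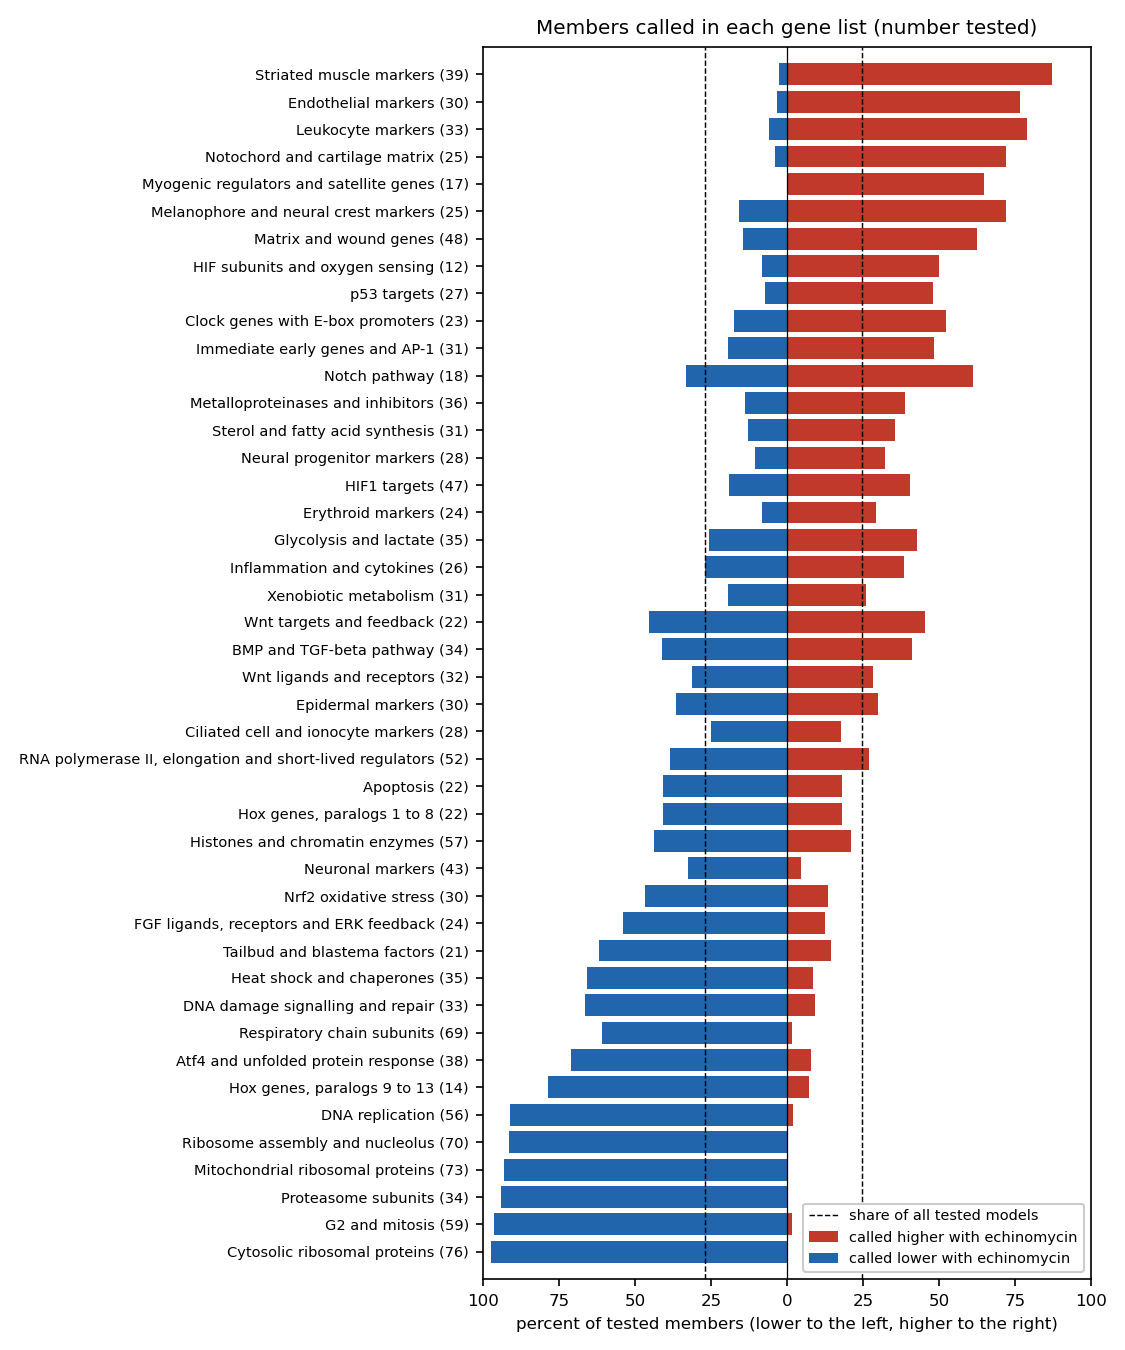
Percent of the tested members of each of 44 gene lists that were called higher (red, to the right) or lower (blue, to the left) with echinomycin than with DMSO, with the number tested in brackets and dashed lines at 24.6% and 27.0% for all tested models. Muscle, endothelial and leukocyte markers lie at the top with 34 of 39, 23 of 30 and 26 of 33 members higher, and cytosolic ribosomal proteins at the bottom with 74 of 76 lower.

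Within the transcription machinery, the gene of the largest subunit of RNA polymerase II went up while those of several small subunits went down. The model of polr2a, whose symbol another model shares, had 87.3, 106 and 100.3 CPM in the echinomycin libraries, against 39.2, 31.2 and 49.1 CPM in the DMSO libraries. The groups did not overlap (1.30 ± 0.13). The subunit genes polr2k (-0.94 ± 0.13), polr2i (-0.71 ± 0.12) and polr2f (-0.63 ± 0.07) fell. Hexim1, which holds the elongation kinase P-TEFb inactive, had 77.8, 52.6 and 51.8 CPM in the echinomycin libraries, against 24.5, 25.7 and 25.9 CPM in the DMSO libraries. It was higher in every echinomycin library (1.26 ± 0.13). Its partner in the same particle, larp7, fell (-0.83 ± 0.08). The acetyl-lysine reader brd3 averaged 29.3 ± 3.22 CPM with echinomycin and 75.5 ± 13.2 CPM with DMSO (-1.36 ± 0.14). The Myc antagonist mxd1 (1.06 ± 0.10) and myc itself (170.2 ± 6.62 CPM with echinomycin and 121 ± 5.58 CPM with DMSO, 0.49 ± 0.06) both rose. In all 14 of 52 genes of this list rose (26.9%) and 20 fell (38.5%), beside 24.6% and 27.0% of all models. The list's median of -0.09 changed sign to 0.01 with upper-quartile factors and 0.05 without a factor.

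Chromatin genes went both ways. The maintenance DNA methyltransferase dnmt1 averaged 43 ± 12 CPM with echinomycin and 84.2 ± 4.23 CPM with DMSO (-0.97 ± 0.14), and the deacetylase hdac2 (-0.99 ± 0.06), the histone variant h2az1 (-0.97 ± 0.08), the chromatin proteins hmgb2 (-0.90 ± 0.08) and hmgn2 (-0.76 ± 0.09) and the Polycomb methyltransferase ezh2 (-0.72 ± 0.06) fell. The 5-methylcytosine dioxygenase tet2 had 8.09, 15.6 and 14.6 CPM in the echinomycin libraries, against 2.08, 3.9 and 3.99 CPM in the DMSO libraries. It rose in all 3 echinomycin libraries (1.92 ± 0.30), with its paralog tet3 (1.19 ± 0.19), the deacetylase hdac5 (1.07 ± 0.17) and the H3K4 methyltransferase kmt2d (1.01 ± 0.13). The list counted 12 rises (21.1%) and 25 falls (43.9%) of 57 tested, beside 24.6% and 27.0% of all models. The share of rises was thus not above that of all models. The list's median of -0.10 became 0.01 with upper-quartile factors and 0.05 without a factor.

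Several FGF ligands fell. Fgf8, expressed in the tailbud of vertebrate embryos, had 2.27, 2.13 and 2.18 CPM in the echinomycin libraries, against 12.6, 9.72 and 9.55 CPM in the DMSO libraries. The echinomycin libraries were nearly equal and all far below the DMSO libraries (-2.27 ± 0.17). Fgf20, needed for fin regeneration in zebrafish, had 0.971, 2.87 and 1.84 CPM in the echinomycin libraries, against 6.12, 6.83 and 5.24 CPM in the DMSO libraries. Here too the groups did not overlap (-1.67 ± 0.29). Fgf16 averaged 8.3 ± 0.956 CPM with echinomycin and 28.5 ± 2.57 CPM with DMSO (-1.77 ± 0.14), fgf9 5.7 ± 0.708 CPM with echinomycin and 12.7 ± 0.951 CPM with DMSO (-1.16 ± 0.12), fgf10 5.19 ± 1.53 CPM with echinomycin and 10.03 ± 1.13 CPM with DMSO (-0.95 ± 0.18) and fgf7 9.01 ± 0.982 CPM with echinomycin and 15.5 ± 2.57 CPM with DMSO (-0.79 ± 0.13). The pathway antagonist il17rd (-0.67 ± 0.10) and the receptor fgfr4 (-0.54 ± 0.10) fell, whereas the ERK feedback genes dusp6 (0.10 ± 0.09, adjusted p = 0.404) and spry4 (0.23 ± 0.12, adjusted p = 0.122) were not called. Unlike the ligands named above, fgf2 rose, averaging 4.32 ± 0.206 CPM with echinomycin and 0.367 ± 0.183 CPM with DMSO (3.50 ± 0.29). The receptor fgfr3 rose too (15.6 ± 4.32 CPM with echinomycin and 6.26 ± 0.893 CPM with DMSO, 1.31 ± 0.22). Altogether 13 of 24 members fell (54.2%) and 3 rose (median -0.31).

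Wnt target and feedback genes were evenly divided in the main fit, 10 higher and 10 lower of 22. These were 45.5% each, beside 24.6% and 27.0% of all models. With upper-quartile factors or without a factor 11 were higher and 7 lower. Bambi, a decoy BMP receptor and Wnt target, had 84.8, 88.9 and 79.6 CPM in the echinomycin libraries, against 302, 296 and 276 CPM in the DMSO libraries. It fell in all 3 echinomycin libraries (-1.79 ± 0.08). The Wnt inhibitor apcdd1 (31.4 ± 3.15 CPM with echinomycin and 77.2 ± 3.03 CPM with DMSO, -1.30 ± 0.08), the feedback gene axin2 (35.9 ± 1.12 CPM with echinomycin and 57.4 ± 5.33 CPM with DMSO, -0.68 ± 0.07), the nuclear effector lef1 (-0.51 ± 0.12) and the secreted antagonist dkk1 (-0.70 ± 0.09) fell. The secreted antagonist wif1 had 28.1, 26.6 and 27.3 CPM in the echinomycin libraries, against 6.12, 6.64 and 5.83 CPM in the DMSO libraries. It went the other way in every library (2.14 ± 0.12), with the Wnt deacylase notum (0.91 ± 0.13) and the cyclin ccnd1 (0.52 ± 0.10). Among 32 ligands and receptors 9 rose (28.1%) and 10 fell (31.25%), near the 24.6% and 27.0% of all models. The Wnt enhancer rspo2 averaged 6.13 ± 0.89 CPM with echinomycin and 17.3 ± 0.716 CPM with DMSO (-1.50 ± 0.12), the ligand wnt5a 71.5 ± 13 CPM with echinomycin and 135 ± 2.06 CPM with DMSO (-0.92 ± 0.10) and wnt5b 56.2 ± 4.34 CPM with echinomycin and 89.3 ± 4.87 CPM with DMSO (-0.67 ± 0.07), all lower, while wnt10a (0.79 ± 0.16), wnt11b (1.36 ± 0.20) and wnt10b, at 5.95 ± 1.09 CPM with echinomycin and 0.995 ± 0.413 CPM with DMSO (2.60 ± 0.26), rose. Without a scaling factor the falls in this list were 6.

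Genes of the Notch pathway went both ways. The receptor notch1 had 77.1, 68.3 and 77.1 CPM in the echinomycin libraries, against 34.8, 28.4 and 33.6 CPM in the DMSO libraries. It rose (1.2002 ± 0.10), as did notch2 (0.71 ± 0.18), and the ligand dll4 rose by 0.62 ± 0.11. The target hey1 had 12.7, 15 and 14.1 CPM in the echinomycin libraries, against 38.5, 38.6 and 35.9 CPM in the DMSO libraries. It fell (-1.43 ± 0.09), with the targets hes2 (-1.57 ± 0.16), hes4 (-0.73 ± 0.08) and hes1 (-0.69 ± 0.10) and the ligand jag1 (45.2 ± 1.09 CPM with echinomycin and 107 ± 8.04 CPM with DMSO, -1.25 ± 0.07). The target hes5.1 was higher at a low level (0.264 ± 0.0418 CPM with echinomycin and 0.0796 ± 0.0477 CPM with DMSO), a call lost without any 1 of echinomycin replicates 1 and 3 and DMSO replicates 1 and 2 (adjusted p = 0.0538 to 0.105) and with DESeq2 (0.0724). The receptor notch3 (0.24 ± 0.07), the ligand jag2 (0.53 ± 0.07) and the glycosyltransferase lfng (0.54 ± 0.10), which modifies Notch, rose. In all 11 of 18 Notch genes rose (61.1%) and 6 fell (33.3%), beside 24.6% and 27.0% of all models. In the BMP and TGF-beta list 14 of 34 rose and 14 fell, or 41.2% each. The median of -0.08 became 0.02 with upper-quartile factors and 0.06 without a factor. The BMP targets id2 (125 ± 17.9 CPM with echinomycin and 213 ± 5.72 CPM with DMSO, -0.77 ± 0.08) and id3 (-0.73 ± 0.07), the receptor acvr1 (-0.78 ± 0.06) and the ligand bmp7.1 (-0.54 ± 0.07) fell. The BMP antagonists chrd.1 (1.66 ± 0.24) and grem1 (0.91 ± 0.12) and the Smad corepressor skil (15.1 ± 0.411 CPM with echinomycin and 3.81 ± 1.49 CPM with DMSO, 1.98 ± 0.25) rose.

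Posterior Hox genes, which mark the tail end of the body axis, fell. Of 14 tested genes of paralog groups 9 to 13, 11 fell (78.6%) and 1 rose, with a median of -0.68. Hoxa13 had 6.66, 13.2 and 13.3 CPM in the echinomycin libraries, against 35.2, 38.3 and 38.6 CPM in the DMSO libraries. Its echinomycin libraries lay below all DMSO libraries (-1.76 ± 0.18), with replicate 1 lowest and the other replicates near the 12.7 ± 2.98 CPM of tail tissue at 0 hpa. Hoxc10 had 42.2, 55.2 and 60.5 CPM in the echinomycin libraries, against 116, 154 and 127 CPM in the DMSO libraries. It fell (-1.33 ± 0.13), with hoxa9 (-0.97 ± 0.06), hoxc11 (-0.87 ± 0.10) and hoxa11 (-0.72 ± 0.11). The single rise was hoxc12, with 15.5, 20.6 and 21.3 CPM in the echinomycin libraries, against 7.75, 10.2 and 11.8 CPM in the DMSO libraries. Its groups did not overlap (0.94 ± 0.20). Of 22 genes of groups 1 to 8, 9 fell (40.9%) and 4 rose (18.2%), beside 27.0% and 24.6% of all models. The median was -0.27, and the falls included hoxa7 (-0.77 ± 0.09) and hoxc8 (-0.62 ± 0.12). The rises were 2 without any 1 of echinomycin replicates 1 and 3 and DMSO replicates 1 and 2.

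Transcription factors of the tailbud and blastema fell in 13 of 21 cases and rose in 3 (median -0.49). The caudal factor cdx2, which sets posterior identity, had 18.3, 31.9 and 24.1 CPM in the echinomycin libraries, against 53.9, 58.8 and 61.9 CPM in the DMSO libraries. Replicate 1 was again lowest among the echinomycin libraries, and no DMSO library came near them (-1.23 ± 0.16). Prdm1 averaged 108 ± 16.3 CPM with echinomycin and 259 ± 8.46 CPM with DMSO (-1.27 ± 0.10), the appendage factor dlx5 95.9 ± 11 CPM with echinomycin and 202 ± 7.62 CPM with DMSO (-1.07 ± 0.08), and sall1 34.2 ± 4.46 CPM with echinomycin and 70.8 ± 6.16 CPM with DMSO (-1.05 ± 0.10), and the blastema factors msx1 (-0.51 ± 0.09) and msx2 (-0.54 ± 0.06) fell less. The notochord and tailbud factor tbxt (12 ± 0.836 CPM with echinomycin and 6.55 ± 1.06 CPM with DMSO, 0.87 ± 0.15) and the RNA-binding lin28a (4.12 ± 0.817 CPM with echinomycin and 1.63 ± 0.271 CPM with DMSO, 1.33 ± 0.22) rose. The enzyme genes aldh1a2, which makes retinoic acid (1.27 ± 0.218 CPM with echinomycin and 3.66 ± 0.75 CPM with DMSO, -1.52 ± 0.23), and cyp26c1, which breaks it down (65.3 ± 19.5 CPM with echinomycin and 232 ± 19.9 CPM with DMSO, -1.82 ± 0.15), fell, and other genes of that pathway were not listed.

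**Figure D4:**
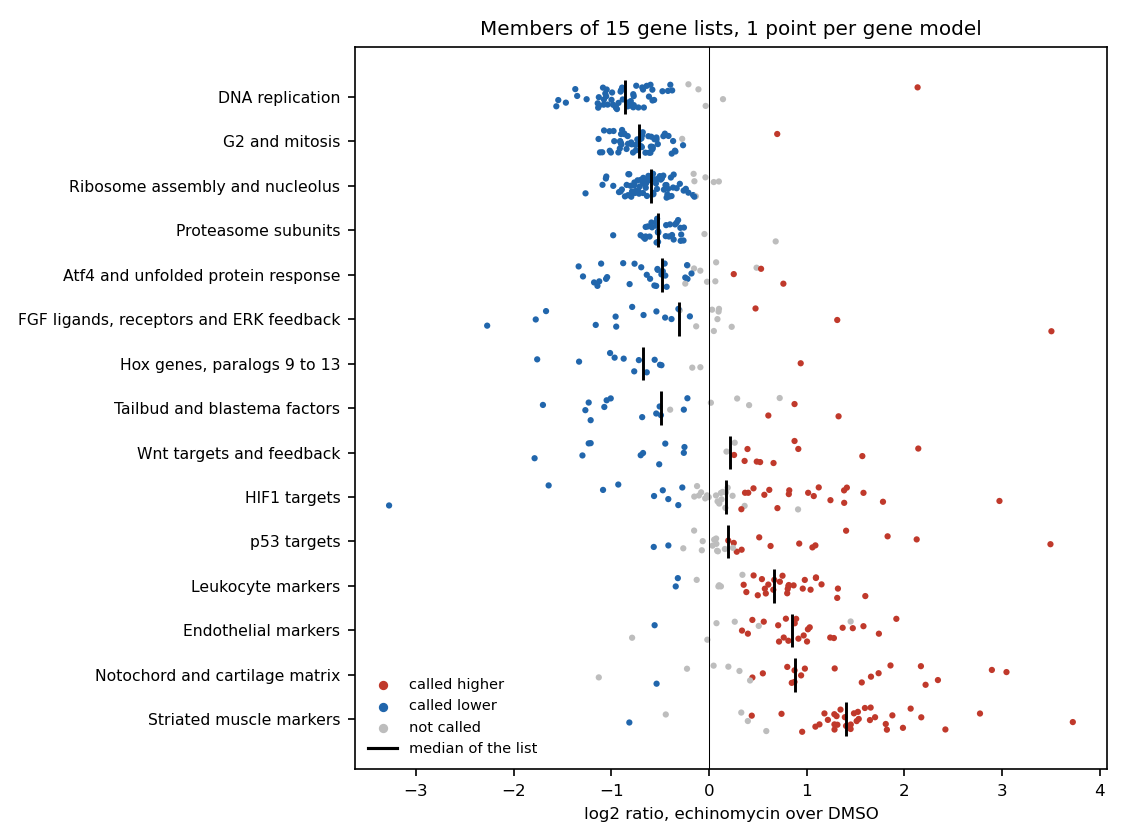
Log2 ratios of echinomycin over DMSO of each tested member of 15 gene lists, with called members in red (higher) or blue (lower), others in grey, and the list's median as a black line. The medians run from -0.86 for DNA replication to 1.40 for striated muscle markers, and each of the 15 lists has members on both sides of 0.

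Markers of differentiated mesodermal tissues were higher with echinomycin. Of 39 tested muscle markers 34 rose (87.2%) and 1 fell (2 without DMSO replicate 3), with a median of 1.40. The calcium pump atp2a1 had 727, 772 and 920.5 CPM in the echinomycin libraries, against 278, 278 and 190.0 CPM in the DMSO libraries. The groups did not overlap (1.70 ± 0.19). The myosin heavy chain myh1 (531 ± 113 CPM with echinomycin and 118 ± 27.4 CPM with DMSO, 2.17 ± 0.27), creatine kinase ckm (1.65 ± 0.15) and the actin actc1 (1.40 ± 0.14) rose, and the titin cap gene tcap fell (3.11 ± 0.594 CPM with echinomycin and 5.5 ± 1.01 CPM with DMSO, -0.82 ± 0.23). Summed over the list, muscle markers came to 8044 to 9613 CPM in the echinomycin libraries and 2883 to 3813 CPM in the DMSO libraries, both below the 35632 to 39234 CPM of tissue at 0 hpa. Myogenic regulators rose in 11 of 17 cases, among them myod1 (3.55 ± 0.595 CPM with echinomycin and 1.14 ± 0.417 CPM with DMSO, 1.65 ± 0.33) and the cadherin cdh15 (2.09 ± 0.17), while the receptor met of muscle precursors was not called (0.09 ± 0.09, adjusted p = 0.416).

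Genes of notochord and cartilage matrix rose in 18 of 25 cases (median 0.87). The collagen IX gene col9a1 had 758, 530.4 and 662 CPM in the echinomycin libraries, against 207, 180.3 and 151 CPM in the DMSO libraries. All 3 echinomycin libraries were well above the DMSO libraries (1.86 ± 0.12). Matrilin matn4 (83.3 ± 26.2 CPM with echinomycin and 16.5 ± 4.09 CPM with DMSO, 2.34 ± 0.19), epyc (1.56 ± 0.11), the caveolin cav1 (1.74 ± 0.12), the signal shh (48.4 ± 5.46 CPM with echinomycin and 26.4 ± 3.07 CPM with DMSO, 0.87 ± 0.10) and the main cartilage collagen col2a1 (1.29 ± 0.08) rose, and the link protein hapln3 fell (-0.54 ± 0.08). The summed level was 8609 to 10116 CPM with echinomycin and 4784 to 4938 CPM with DMSO, and 9494 to 10128 CPM at 0 hpa.

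Endothelial and leukocyte markers also rose more often than they fell. Of 30 endothelial markers 23 rose (76.7%) and 1 fell (median 0.84). The scavenger receptor stab2 had 66, 61.5 and 79.3 CPM in the echinomycin libraries, against 28, 23.2 and 23.4 CPM in the DMSO libraries. It rose in every echinomycin library (1.47 ± 0.15), with von Willebrand factor vwf (1.24 ± 0.11), the junction cadherin cdh5 (1.03 ± 0.17) and tie1 (0.89 ± 0.16), and robo4 fell (-0.56 ± 0.08). Of 33 leukocyte markers 26 rose and 2 fell (median 0.67), among the rises the colony-stimulating factor receptors csf1r (92.8 ± 4.61 CPM with echinomycin and 53.3 ± 2.49 CPM with DMSO, 0.80 ± 0.09) and csf3r (0.98 ± 0.09), the integrin itgb2 (1.31 ± 0.13) and the myeloid factor spi1 (0.87 ± 0.10); the falls were 1 without echinomycin replicate 2, and myeloperoxidase mpo was not called (0.10 ± 0.09, adjusted p = 0.367). Their summed levels were 1216 to 1423 CPM with echinomycin and 1062 to 1103 CPM with DMSO. Erythroid markers had 7 rises (29.2%, beside 24.6% of all models) and 2 falls of 24 tested. Their median log2 ratio was 1.00, although 15 members were not called. The list summed to 356 to 543 CPM with echinomycin and 293 to 329 CPM with DMSO. At 0 hpa it ran from 3091 to 11921 CPM, and those libraries were part of the fit. The rises were 2 without echinomycin replicate 3 and 14 with the echinomycin and DMSO libraries fitted alone, and the falls were not called without echinomycin replicate 1 or DMSO replicate 2 and counted 1 without DMSO replicate 1 or 3. All matched markers of these lists had counts in the 6 libraries except myl3 of muscle, col11a2 of cartilage and the endothelial sox17b.1 and sox17b.2, which were at 0. The part of marker levels in the other results was not tested.

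Pigment markers rose more often than they fell. Of 25 melanophore and neural crest markers 18 rose and 4 fell (median 0.90). Their summed level went the other way, with 714 to 720 CPM in the echinomycin libraries and 748 to 787 CPM in the DMSO libraries. Tissue at 0 hpa had 1028 to 1107 CPM. The melanin enzymes tyrp1 (14.6 ± 0.965 CPM with echinomycin and 5.82 ± 1.81 CPM with DMSO, 1.32 ± 0.21) and tyr (1.18 ± 0.20), the endothelin receptor ednrb (2.44 ± 0.20) and the mesenchymal factor twist1 (36 ± 2.35 CPM with echinomycin and 15 ± 2.18 CPM with DMSO, 1.26 ± 0.12) rose, and the crest factors snai2 (-0.50 ± 0.09) and tfap2a (-0.47 ± 0.06) fell. Neuronal markers fell in 14 of 43 cases (32.6%, beside 27.0% of all models; median -0.28). They rose in 2, the low genes syt1 of synaptic vesicles (1.63 ± 0.246 CPM with echinomycin and 0.897 ± 0.394 CPM with DMSO) and chat of acetylcholine synthesis (0.401 ± 0.0929 CPM with echinomycin and 0.016 ± 0.0278 CPM with DMSO), or in 1 without DMSO replicate 2 or 3, where syt1 was not called. The microtubule protein mapt had 13.4, 23.6 and 26.4 CPM in the echinomycin libraries, against 73.8, 67 and 75.2 CPM in the DMSO libraries. It was lower in all echinomycin libraries (-1.77 ± 0.23), with the growth cone protein gap43 (12.8 ± 0.688 CPM with echinomycin and 41.4 ± 3.89 CPM with DMSO, -1.70 ± 0.08) and the tubulin regulator stmn2 (-1.30 ± 0.11). Synaptic and neurofilament genes such as vamp2 (-0.18 ± 0.12, adjusted p = 0.243) and nefm (0.33 ± 0.19, adjusted p = 0.172) were not called. Neural progenitor genes rose in 9 of 28 cases (32.1%) and fell in 3 (10.7%), beside 24.6% and 27.0% of all models. The rises included nes (0.94 ± 0.18) and the falls sox3 (-0.68 ± 0.15). The rises were 6 without echinomycin replicate 3 and 13 without a scaling factor.

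Epidermal genes went both ways, 9 higher and 11 lower of 30 (6 lower without a factor), and the median of -0.03 became 0.07 with upper-quartile factors and 0.11 without a factor. The shares were 30% and 36.7%, beside 24.6% and 27.0% of all models. The simple epithelial keratins krt8.1 (1883 ± 192 CPM with echinomycin and 1218 ± 141 CPM with DMSO, 0.63 ± 0.09) and krt19 (0.67 ± 0.07) and the desmosomal genes dsp (0.62 ± 0.08) and dsc3 (0.82 ± 0.10) rose. The stem cell factor tp63 (157 ± 12.46 CPM with echinomycin and 226 ± 6.4 CPM with DMSO, -0.52 ± 0.06), grhl3 (-0.61 ± 0.07) and the tight junction gene cldn7 (-0.51 ± 0.07) fell. Of 28 genes of ciliated cells and ionocytes 5 rose (3 without echinomycin replicate 3, and 9 with upper-quartile factors, without a factor or with limma) and 7 fell. In the main fit these were 17.9% and 25% of the members, near or below the shares of all models. The ionocyte proton pump subunit atp6v1b1 had 20.02, 19.2 and 19.4 CPM in the echinomycin libraries, against 45.6, 39.1 and 45.9 CPM in the DMSO libraries. The echinomycin libraries were nearly equal and below all DMSO libraries (-1.15 ± 0.07), while the ionocyte factor foxi1 (22 ± 6.12 CPM with echinomycin and 21.7 ± 5.31 CPM with DMSO, 0.03 ± 0.16, adjusted p = 0.909) and the ciliary factor rfx2 (0.09 ± 0.08, adjusted p = 0.331) were not called.

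Matrix genes rose more often than they fell. Of 48 tested 30 rose (62.5%) and 7 fell (14.6%), with a median of 0.53. Elastin (eln1) had 665, 477 and 568 CPM in the echinomycin libraries, against 119, 117 and 99.8 CPM in the DMSO libraries. The groups were wide apart (2.35 ± 0.11). Tenascin tnn (61.3 ± 11.1 CPM with echinomycin and 11.1 ± 0.822 CPM with DMSO, 2.47 ± 0.20), the thrombospondins thbs4 (2.24 ± 0.17) and thbs2 (2.03 ± 0.28) and the basement membrane collagens col4a1 (1.58 ± 0.19) and col4a2 (1.99 ± 0.19) rose, as did the main collagen col1a1, by less (0.53 ± 0.06). Fibronectin (fn1), an early wound matrix protein, had 2088, 2586 and 2641 CPM in the echinomycin libraries, against 6154, 5352 and 4664 CPM in the DMSO libraries. It fell in every echinomycin library (-1.14 ± 0.11), with the laminin lama1 (-0.64 ± 0.08). Of 36 metalloproteinases and inhibitors 14 rose (38.9%) and 5 fell (13.9%), beside 24.6% and 27.0% of all models. The rises were 9 without echinomycin replicate 3. The collagenase mmp13l had 108, 187 and 136 CPM in the echinomycin libraries, against 436, 354 and 403 CPM in the DMSO libraries. It fell (-1.47 ± 0.16), as did the stromelysin mmp11 (72.7 ± 12.6 CPM with echinomycin and 130.2 ± 3.78 CPM with DMSO, -0.84 ± 0.09), and the inhibitor timp3 rose (37.8 ± 5.75 CPM with echinomycin and 11.4 ± 2.33 CPM with DMSO, 1.72 ± 0.19). The summed muscle, notochord and leukocyte markers given above moved with these matrix genes, and their part was not tested.

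Immediate early genes had 15 rises (48.4%) and 6 falls (19.4%) among 31 tested, beside 24.6% and 27.0% of all models. The AP-1 gene fosl1 (19.2 ± 4.55 CPM with echinomycin and 9.67 ± 0.108 CPM with DMSO, 0.99 ± 0.21), the stress factor atf3 (1.04 ± 0.17) and klf4 (1.18 ± 0.14) rose. The ERK phosphatase dusp1 (34.7 ± 6.33 CPM with echinomycin and 74.6 ± 2.49 CPM with DMSO, -1.10 ± 0.13) and ier2 (-0.63 ± 0.06) fell, while fos was not called (114 ± 18.7 CPM with echinomycin and 156 ± 11.6 CPM with DMSO, -0.44 ± 0.21, adjusted p = 0.0856). Of 26 inflammation genes 10 rose (38.5%) and 7 fell (26.9%), the falls being near the 27.0% of all models. The rises included the chemokine cxcl8 (12.1 ± 2.08 CPM with echinomycin and 3.86 ± 1.39 CPM with DMSO, 1.66 ± 0.23), the cytokine lif (9.31 ± 0.668 CPM with echinomycin and 2.92 ± 0.286 CPM with DMSO, 1.67 ± 0.15) and the decoy receptor il1r2 (1.29 ± 0.17). The falls included complement c3 (492 ± 27.2 CPM with echinomycin and 994 ± 107 CPM with DMSO, -1.01 ± 0.10) and the adaptor myd88 (-0.47 ± 0.06). Clock genes rose in 12 of 23 cases (52.2%), including per2 (27.7 ± 6.42 CPM with echinomycin and 9.88 ± 2.36 CPM with DMSO, 1.48 ± 0.19), npas2 (1.22 ± 0.16) and nr1d2 (0.72 ± 0.15), and fell in 4 (17.4%), including cry2 (-0.47 ± 0.07).

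Nrf2 targets fell in 14 of 30 cases (46.7%) and rose in 4 (13.3%), beside 27.0% and 24.6% of all models. The falls were led by thioredoxin txn (35.8 ± 1.52 CPM with echinomycin and 82.7 ± 24 CPM with DMSO, -1.20 ± 0.24) and the glutathione transferase gstp1 (271 ± 12.9 CPM with echinomycin and 585 ± 51.7 CPM with DMSO, -1.11 ± 0.09). Without a scaling factor 9 fell and 8 rose. Of 31 xenobiotic genes 8 rose (25.8%) and 6 fell (19.4%), beside 24.6% and 27.0% of all models, the falls being 2 without a scaling factor. The drug exporter abcb1, also called P-glycoprotein, had 42.8, 30.9 and 40.5 CPM in the echinomycin libraries, against 10.002, 10.1 and 8.51 CPM in the DMSO libraries. It rose in all 3 echinomycin libraries (1.996 ± 0.12), while tiparp, a target of the aryl hydrocarbon receptor, was not called (0.07 ± 0.08, adjusted p = 0.472). Sterol genes had 11 rises (35.5%) and 4 falls (12.9%) of 31, beside 24.6% and 27.0% of all models, the rises led by dhcr7 (0.70 ± 0.11). The rises were 6 to 7 without any 1 of the echinomycin libraries or of DMSO replicates 1 and 2, and 17 without a scaling factor or with limma on the authors' CPM. Stearoyl-CoA desaturase scd fell (-0.89 ± 0.19).

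Setting echinomycin directly against the other compounds asks where its effect differed from theirs. The doses differed, and all contrasts use the same echinomycin libraries. Against 2ME, a tubulin-binding metabolite of oestradiol that lowers HIF1A protein, 8301 models (44.1%) were called, 4000 higher with echinomycin and 4301 lower. Against IWR-1, which stabilises Axin and lowers Wnt signalling, 6553 models (34.8%) were called, 3051 higher and 3502 lower. Genes to name were drawn from the models called in 1 direction in all contrasts. In 1482 models (7.87%) echinomycin was called higher than DMSO, 2ME and IWR-1, and in 2118 (11.3%) lower than all 3.

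Genes called in 1 direction against DMSO, 2ME and IWR-1 were ranked by the larger adjusted p of the 2ME and IWR-1 contrasts. The first in this ranking included those of 2 proton pump subunits. Atp6v1b1 averaged 19.6 ± 0.418 CPM with echinomycin, 62.1 ± 1.15 CPM with 2ME, 70.1 ± 3.65 CPM with IWR-1 and 43.5 ± 3.86 CPM with DMSO. Its log2 ratio was -1.67 ± 0.07 over 2ME and -1.84 ± 0.07 over IWR-1. The pump subunit gene atp6v1al averaged 14.7 ± 0.837 CPM with echinomycin, 73.8 ± 3.01 CPM with 2ME, 77.5 ± 2.08 CPM with IWR-1 and 33.8 ± 4.12 CPM with DMSO. Its log2 ratio was -1.20 ± 0.08 over DMSO, -2.33 ± 0.08 over 2ME and -2.40 ± 0.08 over IWR-1. Lower levels with echinomycin than with DMSO, 2ME and IWR-1 were a condition for drawing both. The junction scaffold magi1 had ratios of -1.38 ± 0.08 over DMSO, -1.56 ± 0.08 over 2ME and -1.58 ± 0.08 over IWR-1. The tRNA-modifying enzyme cdkal1 had ratios of -1.65 ± 0.08, -1.74 ± 0.08 and -1.52 ± 0.08 in those contrasts. The autophagy gene vmp1 (-0.63 ± 0.05, -0.98 ± 0.05 and -1.01 ± 0.05) and xa-1 (-1.65 ± 0.16, -3.18 ± 0.16 and -3.001 ± 0.16) were lower likewise. Elastin was higher in these contrasts, with a mean of 570.1 ± 94 CPM with echinomycin, 94.8 ± 7.1 CPM with 2ME, 123 ± 11.8 CPM with IWR-1 and 112 ± 10.4 CPM with DMSO. So was the cartilage gene cnmd, named above for its rise over DMSO (3.62 ± 0.17 over 2ME and 2.77 ± 0.16 over IWR-1).

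**Figure D5:**
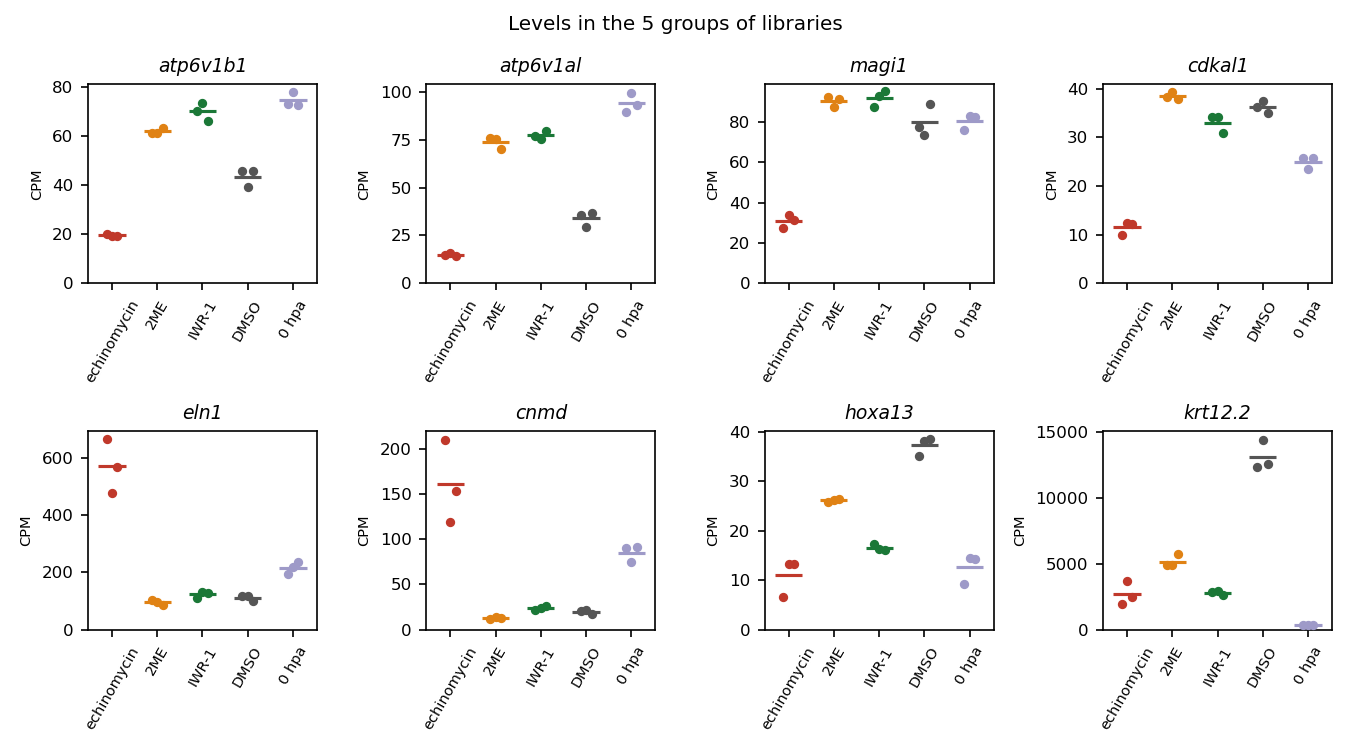
Levels (CPM, linear axes that start at 0) of 8 genes in each library of the 5 groups, ordered echinomycin, 2ME, IWR-1, DMSO and 0 hpa, with group means as lines. Atp6v1b1, atp6v1al, magi1 and cdkal1 were drawn for lower levels with echinomycin than with DMSO, 2ME and IWR-1, and eln1 and cnmd for higher ones. Hoxa13 and krt12.2 are lower than DMSO with all 3 compounds.

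Among the HIF1 targets stc1 had log2 ratios of -2.81 ± 0.20 over 2ME (adjusted p = 1.92e-08) and -1.22 ± 0.21 over IWR-1 (adjusted p = 0.000305). For higd1a the ratios were -1.73 ± 0.06 (adjusted p = 1.26e-11) and -0.87 ± 0.06 (adjusted p = 2.83e-08). Over the HIF1 target list 19 of 47 genes were higher and 8 lower than with 2ME, beside 21.3% and 22.8% of all models. Of the same genes 13 were higher and 12 lower than with IWR-1, beside 16.2% and 18.6% of all models.

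Of the p53 targets ccng1 averaged 1053 ± 184 CPM with echinomycin, 528 ± 13.3 with 2ME and 256 ± 5.04 with IWR-1. Its ratio was 0.99 ± 0.09 over 2ME (adjusted p = 1.45e-07) and 2.04 ± 0.09 over IWR-1 (adjusted p = 1.45e-10). For cdkn1a these were 0.28 ± 0.11 (adjusted p = 0.0399) and 1.25 ± 0.11 (adjusted p = 2.98e-07). In the list 10 of 27 were higher and 2 lower than with 2ME, and 14 higher and 2 lower than with IWR-1, against the same shares of all models.

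The replication and mitosis lists were lower than with both other compounds as well. Replication genes were lower in 40 of 56 than with 2ME and in 48 than with IWR-1, and genes of G2 and mitosis in 57 and 51 of 59, beside 22.8% and 18.6% of all models. Cdk1 had ratios of -0.70 ± 0.11 over 2ME and -0.57 ± 0.11 over IWR-1. Of 39 muscle markers 26 were higher and 1 lower than with 2ME, and 4 higher and 1 lower than with IWR-1, beside 16.2% of all models higher. Of 14 posterior Hox genes 2 were lower and 1 higher than with 2ME, and 1 lower and 7 higher than with IWR-1, beside 18.6% and 16.2% of all models. Within the list hoxa13 was at -1.24 ± 0.19 over 2ME and -0.59 ± 0.19 over IWR-1 (adjusted p = 0.023). Fgf8 had ratios of -1.92 ± 0.17 over 2ME (adjusted p = 1.87e-07) and -0.17 ± 0.19 over IWR-1 (adjusted p = 0.52).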

How the data were processed

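RNA from tail tissue was sequenced as paired ends in 15 libraries, 6 of which make up this comparison, and samples were grouped by their titles. Reads were trimmed with Trim Galore 0.6.5 and quantified with kallisto, and edgeR was used, per the submitters' processing notes; the build is not given in the sources used here. Per the file headers, the deposited estimated counts are kallisto's per gene model, and 19.7 to 22.3% of them per library are fractional (tolerance 1e-06). The deposited TPM values, which divide them by the effective length per the file headers, were not used in tests. The deposited CPM table of the authors served in 1 alternative.

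Estimated counts were rounded and all 15 libraries fitted together with edgeR 4.0.16 in R 4.3.3 (1 coefficient per group, TMM factors, filterByExpr with minimum count 10 and total 15, quasi-likelihood F test, common biological coefficient of variation 0.0936, 10 residual degrees of freedom). Genes were called at a Benjamini-Hochberg adjusted p under 0.05. Standard errors come from the F statistic. Counting intervals for groups of 1 to 3 counts are exact at a level of 0.95. Tables and drawings used Python 3.11.15, pandas 2.3.3, numpy 2.4.6 and matplotlib 3.10.9. The fit was tried on simulated counts with the same spread for every gene and no changes in low genes. That trial does not cover low or widely spread genes.

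The comparison, the members of the 44 gene lists (1581 of 1675 symbols matched to a model, 19 through synonyms in the RefSeq table) and the rule for naming genes were chosen with earlier results of these data known. A synonym could bring in more than 1 model, so the 30 listed endothelial symbols gave 32 matched models. Named are the 12 largest rises and 12 largest falls that were called, reached 5 CPM in 1 group and had libraries that did not overlap, all HIF machinery genes, up to 8 called members of each list with the smallest adjusted p, members needed to describe a role, and 8 genes called against DMSO, 2ME and IWR-1. The treatment labels of the IWR libraries count up with the replicate, and all 3 were taken as IWR-1. Replicate numbers were not treated as pairs. Correlations of same-numbered deviations were -0.0594 to 0.0800, beside -0.122 to 0.159 for differently numbered ones. With 3 libraries per group these cannot show whether same-numbered samples shared a batch. Alternatives were RLE or upper-quartile factors, no scaling factor, no filter or a mean of at least 10 counts, DESeq2 1.42.0, only the groups compared, a replicate block, an effective length offset, limma 3.58.1 on log2(CPM + 1) of the deposited table, and leaving out each of the 6 libraries. Promoter sequences were not used here, so no motif was searched. Some genes that the naming rule selects are not reported here.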

Additional observations from a re-analysis of the deposited data

How the results depend on the processing

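The number of genes called against DMSO was between 8249 and 9188 when 1 of the 6 libraries was left out, and 9510 with a replicate block, against 9709. The counts against 2ME (7239 to 8421) and IWR-1 (5478 to 6626), the 2-fold count (1992 to 2398) and the listed genes called (971 to 1053, against 1104) kept within 1.5 times as well. With limma on the authors' CPM values (log2, 1 added) the 2-fold count fell to 1038 (862 higher and 176 lower), a scale that understates the ratios of low genes. The replicate block gave 8051 calls against 2ME, 6279 against IWR-1 and 2227 of 2-fold or more, and whether the numbers mark shared batches is not known. Of 253 called genes named here, 247 kept direction and call under every alternative that gave them a value. The others were arnt2, ep300, crebbp, cdkn2d, hes5.1 and syt1. Limma on the authors' CPM gave no value for some named genes, among them krt51, krt53, stc1, fgf2, fgf20 and mmp13l, so their calls were not tested there. Of 1408 counts of list members by direction under an alternative, 98 moved by over 1.5 times, and those that turn on 1 library stand with the lists. Reversed signs occurred in genes that were not called: with 1 library left out, cited2 ran between -0.020 (without echinomycin replicate 2) and 0.15, and foxi1 between -0.18 (without echinomycin replicate 1; -0.13 without DMSO replicate 2) and 0.22. Depth limits statements on genes near 0.128 to 0.161 CPM.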
